A study of Mus musculus with 2 samples.

Results

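Natural killer (NK) cells were described in single-cell RNA sequencing of optic nerve suspensions from *Nf1*OPG mice. A cell was taken as an NK cell when *Ncr1* and *Klrb1c* together had at least 2 UMIs (unique molecular identifiers, each standing for 1 captured transcript), the CD3 chain genes *Cd3d*, *Cd3e* and *Cd3g* together had at most 1 UMI, and *Csf1r* had none. Of the 25652 cells kept from both libraries, 302 met this rule (1.18%, exact 95% binomial interval 1.05 to 1.32%). They were 73 of 8834 cells in library C-ON (0.826%, interval 0.648 to 1.04%) and 229 of 16818 cells in library FMC_new (1.36%, interval 1.19 to 1.55%). The mean share was 1.09% ± 0.379 (SD, n = 2 libraries). Oligodendrocytes made up 65.8% of the cells in C-ON and 15.6% in FMC_new, and the part this has in the share of NK cells was not tested.

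Both libraries come from *Nf1*OPG mice, whose genotype is *Nf1* flox/mut; GFAP-Cre on a C57BL/6 background, so all cells carry 1 mutant *Nf1* allele and Cre driven by the GFAP promoter removes the other allele in glial lineage cells. For each library the optic nerves of 10 mice aged 12 weeks were pooled into 1 suspension, and no treatment is named in the labels. The label of C-ON adds the word control without saying of what, and no library of another genotype was analysed here. The 2 libraries therefore stand for 1 condition, and differences between them are given as descriptions.

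NK cells are innate lymphocytes that kill infected, stressed or transformed cells without rearranged antigen receptors. Their response is set by the balance of activating receptors such as NKp46 and NKG2D, which signal through adaptor proteins, and of inhibitory receptors such as the mouse Ly49 and the CD94/NKG2A families, which bind MHC class I molecules. Triggered cells release perforin and granzymes, and they are a source of interferon gamma and of chemokines that attract T cells, macrophages and dendritic cells. Type 1 innate lymphoid cells (ILC1) share NKp46 and NK1.1 with NK cells, so a rule built on both genes does not separate them.

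The members were chosen by their UMI counts of *Ncr1*, *Klrb1c*, the CD3 genes and *Csf1r*, so the values of these genes are given as a description. *Ncr1* encodes the activating receptor NKp46, and *Klrb1c* encodes NK1.1, a C-type lectin-like receptor carried by NK cells of C57BL/6 mice. Their UMI sum had a median of 5 in both libraries and reached 16 in C-ON and 15 in FMC_new. *Ncr1* was detected in 97.3% and 96.1% of the NK cells of C-ON and FMC_new and *Klrb1c* in 69.9% and 74.7%, so 2 cells of C-ON and 9 of FMC_new were members on *Klrb1c* alone. The limit on CD3 genes removed 8 and 31 otherwise qualifying cells, the limit on *Csf1r* 0 and 6, and 5 and 21 members held 1 CD3 UMI. Just inside the threshold were 8 and 32 cells with a sum of 2, and just outside were 33 and 73 cells with a sum of 1. *Fcer1g* stood at 1934 and 1284 CPM (UMIs per 1000000 UMIs of the cells summed) inside and at 801 and 667 CPM outside. *Klre1* stood at 686 and 319 CPM inside and at 87.6 and 91.6 CPM outside.

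The 250 bases before the RefSeq start of both rule genes are shown because they chose the cells, and those of *Gzma* and *Cxcr6* because both genes divide the members further on (GRCm38.p6, written 5′ to 3′ on the gene's strand). Capitals mark matches to the Runx motif TGTGGT, read as ACCACA on the other strand. These promoters were picked after the levels of the genes had been seen.
*Ncr1*, chr7:4337465-4337714, plus strand: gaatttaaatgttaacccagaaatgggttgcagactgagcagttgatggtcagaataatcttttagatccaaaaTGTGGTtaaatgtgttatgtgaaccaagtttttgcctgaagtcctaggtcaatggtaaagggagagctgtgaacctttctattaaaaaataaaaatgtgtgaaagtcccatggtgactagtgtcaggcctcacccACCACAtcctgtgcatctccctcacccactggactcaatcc
*Klrb1c*, chr6:128788642-128788891, minus strand: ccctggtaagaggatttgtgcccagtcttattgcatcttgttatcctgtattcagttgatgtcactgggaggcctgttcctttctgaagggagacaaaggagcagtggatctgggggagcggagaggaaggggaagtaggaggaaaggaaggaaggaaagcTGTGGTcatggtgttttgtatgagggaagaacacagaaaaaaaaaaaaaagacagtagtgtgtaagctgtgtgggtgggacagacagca
*Gzma*, chr13:113100982-113101231, minus strand: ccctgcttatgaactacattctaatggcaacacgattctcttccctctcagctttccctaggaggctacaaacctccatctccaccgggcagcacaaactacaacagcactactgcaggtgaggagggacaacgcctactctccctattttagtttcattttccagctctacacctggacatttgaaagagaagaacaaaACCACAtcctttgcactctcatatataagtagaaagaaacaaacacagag
*Cxcr6*, chr9:123806227-123806476, plus strand: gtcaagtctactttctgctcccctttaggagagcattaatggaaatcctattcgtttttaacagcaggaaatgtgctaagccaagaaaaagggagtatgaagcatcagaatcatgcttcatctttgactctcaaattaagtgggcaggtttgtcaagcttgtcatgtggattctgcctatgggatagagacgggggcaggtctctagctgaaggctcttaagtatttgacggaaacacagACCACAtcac
The Runx letters occurred 2 times before *Ncr1* and 1 time each before *Klrb1c*, *Gzma* and *Cxcr6*, and 0 times in the matching windows of *Eomes* and *Il7r*. Of 27025 promoter windows of this length in the RefSeq table, 14.2% held them. The T-box motif GGTGTG, read as CACACC on the other strand, had 0 matches in all 6 windows, against 16.2% of the 27025. A match is a description of the letters and not a bound site.

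NK cells had medians of 3528 UMIs (788 to 14791) in C-ON and 3543 UMIs (831 to 19636) in FMC_new, with medians of 1583 and 1672 detected genes. Across the whole files, C-ON held 85101211 UMIs in 10845 barcodes and FMC_new 129113325 UMIs in 21341 barcodes. The libraries shared 296 barcode sequences; 8 of these marked an NK cell in 1 library, and 0 marked one in both. RNA of other cells was present in the NK cells of both libraries. Immunoglobulin genes took a median of 0.172% of an NK cell's UMIs in C-ON and 1.25% in FMC_new, and the hormone and other pituitary genes 0% and 0.543%. In FMC_new, 10 members with at least 10% of their UMIs from immunoglobulin genes held 83.8% of all immunoglobulin UMIs of the NK cells. CD8 T cells had like medians, 0.123% and 1.13% for immunoglobulin genes and 0% and 0.531% for pituitary genes.

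The label was checked against 18 NK identity genes that the rule did not use. In NK cells, 17 of the 18 were found in at least 20% of the cells of C-ON and 18 of 18 in FMC_new, against 6 and 7 in CD8 T cells. Their summed level was 8837 and 9121 CPM in NK cells and 3636 and 4071 CPM in CD8 T cells. The 13 T cell genes in the files summed to 267 and 286 CPM in NK cells and to 5005 and 5703 CPM in CD8 T cells, although this list includes the CD3 genes of the rule. Of other cell types, the 8 oligodendrocyte genes summed to 13957 and 6973 CPM in NK cells, close to the 14579 and 6699 CPM of CD8 T cells. The 10 B and plasma cell genes summed to 380 and 6504 CPM, the 12 monocyte, macrophage and microglia genes to 126 and 385 CPM and the 6 neutrophil genes to 6.44 and 70.3 CPM. The part these RNAs have in the results was not tested, and counts of called genes without the members richest in them are given below.

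NK cells were compared with other lymphocytes of the same libraries, to show which genes set them apart from T cells and from type 2 innate lymphoid cells (ILC2). CD8 T cells (540 and 1986 cells in C-ON and FMC_new) and CD4 T cells (195 and 819) had at least 2 CD3 UMIs, a UMI of their coreceptor and no *Ncr1* or *Klrb1c*. ILC2 (12 and 52 cells) had UMIs of *Gata3* and *Il1rl1*, and only the 52 cells of FMC_new were enough for the test. UMIs were summed per library and population, and edgeR's quasi-likelihood test was run on 10960 genes with the library as a block, leaving out 13 genes that define the populations. Folds are on the log2 scale, NK cells minus the other population, with their SE and the Benjamini-Hochberg adjusted p of that test. Since *Ncr1*, *Klrb1c* and the CD3 genes define both sides, genes known to accompany them describe what the rules separated. A p-value is set against the spread left after the library difference is removed. That spread is shared by all populations and comes from these 2 pools only.

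Against CD8 T cells, 406 genes were higher in NK cells (3.7% of those tested) and 397 were lower (3.62%). In the NK identity list, 16 of 18 genes were higher and 0 lower, with a median log2 fold of 1.94 where all genes had -0.02. After 3 members of C-ON and 31 of FMC_new with at least 5% of their UMIs from other lineages were left out, 374 genes were higher and 477 lower. The counts depend on the library block, without which 77 genes were higher and 77 lower, and 64 of 140 called pairs of a gene and a comparison did not pass. With DESeq2, 12 of the calls against CD8 T cells that are named below were lost (adjusted p between 0.0525 and 0.449), those of *Ccl2*, *Ccl3*, *Cd96*, *Crtam*, *Cx3cr1*, *Eomes*, *Il10ra*, *Il21r*, *Maf*, *Rtp4*, *S1pr1* and *Tmem176a*. Values of NK cells are given below for C-ON first and FMC_new second, followed by the same for the other population.

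Signalling adaptors were called in both directions. *Fcer1g*, the Fc receptor gamma chain that carries the signal of NKp46 and CD16, stood at 1860 and 1913 CPM in NK cells and at 18.1 and 55.4 CPM in CD8 T cells (log2 fold 5.78, SE 0.32, adjusted p = 1.4e-05). *Tyrobp*, which encodes the adaptor DAP12 of activating Ly49 receptors, stood at 1294 and 1550 CPM against 23.9 and 76.7 CPM (4.97, SE 0.31, adjusted p = 1.9e-05). Both NK sums lay far above both T cell sums. *Fcgr3*, the CD16 receptor that lets NK cells bind antibody-coated cells, reached 70.8 and 66.3 CPM against 2.53 and 9.75 CPM (3.25, SE 0.45). The kinase gene *Syk*, the adaptor genes *Lat2* and *Sh2d1b1* and the phospholipase gene *Plcg2* were higher too, with log2 folds between 1.77 and 4.32. Of the 15 genes of this list, 7 were higher and 4 lower. The lower ones were *Lat* (-2.99) and *Lck* (-0.69), an adaptor and a kinase of the T cell receptor, *Cd247* (-1.30), the zeta chain that NKp46 and CD16 use as well, and *Sh2d1a* (-1.15), the SAP adaptor of SLAM-family receptors such as 2B4. *Hcst*, the DAP10 adaptor of NKG2D, did not pass the test, with 444 and 325 CPM against 498 and 390 CPM.

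Of 12 activating receptor genes tested, 6 were higher and 2, *Crtam* and *Slamf6*, lower. *Klrk1*, which encodes NKG2D, a receptor for stress-induced ligands, stood at 483 and 550 CPM against 120 and 116 CPM (log2 fold 2.07, SE 0.15, adjusted p = 4.9e-05). *Cd244a*, the receptor 2B4, stood at 86.9 and 119 CPM against 11.2 and 21.4 CPM (2.57, SE 0.22). *Klra8*, the activating receptor Ly49H, stood at 196 and 251 CPM in NK cells against 0 and 1.79 CPM (7.42, SE 0.34, adjusted p = 5.9e-06). *Klrb1b*, counted in this list although the receptor it encodes is inhibitory, stood at 425 and 447 CPM against 1.45 and 9.52 CPM (6.07, SE 0.36). *Klrb1f*, of the same family, stood at 180 and 191 CPM against 1.81 and 2.69 CPM (6.21, SE 0.24). *Cd226*, an adhesion receptor that shares ligands with *Tigit*, had 238 and 201 CPM against 164 and 197 CPM and did not pass the test (adjusted p = 0.519).

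The inhibitory receptors fell into groups of opposite direction, 6 higher and 6 lower of 15 tested. The higher ones were 4 Ly49 genes, *Klrd1* and *Klrg1*, a receptor for cadherins. Among the Ly49 genes, *Klra7* stood at 187 and 234 CPM against 1.81 and 2.02 CPM (log2 fold 6.75, SE 0.23, adjusted p = 2.0e-06), and *Klra1*, *Klra3* and *Klra9* were higher by 6.27, 2.33 and 4.21. *Klra4*, the activating Ly49D of the identity list, had the largest fold of the called genes with at least 50 CPM in NK cells of both libraries, with 261 and 356 CPM against 2.53 and 0.448 CPM (8.28, SE 0.40). *Klrd1*, the CD94 chain, was higher by 0.68, with 653 and 665 CPM against 344 and 450 CPM, while its partner *Klrc1*, the NKG2A chain, stood at 293 and 375 CPM against 209 and 197 CPM (adjusted p = 0.0952). The lower genes were checkpoint receptors of activated T cells. *Pdcd1*, which encodes PD-1, stood at 38.6 and 29.7 CPM against 451 and 484 CPM (-3.91, SE 0.19, adjusted p = 7.9e-06). *Lag3* (-2.61), *Ctla4* (-1.45), *Cd96* and *Tigit* (-0.95) were lower as well, and *Havcr2*, which encodes TIM-3, stood at 0 and 2.97 CPM against 43.4 and 43.7 CPM.

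The Ly49 and NKG2 genes lie in clusters of related copies, and reads of shared stretches may be left uncounted or counted for another gene. Of all distinct 50-base stretches of their transcripts, 33.1% of *Klra8*, 31.5% of *Klra9*, 20.7% of *Klra3* and 12.3% of *Klra7* also occurred in another gene, as did 4.68% of *Klra4* and 2.98% of *Klra1*. For *Klrc1* the share was 38.6%, for *Klrc2* 16.3% and for *Klrb1b* 27.2%, while *Ncr1*, *Klrk1*, *Klrd1*, *Klrb1f* and *Gzma* had 0%. The levels of single Ly49, NKG2 and *Klrb1* copies are uncertain to that extent.

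**Figure D1:**
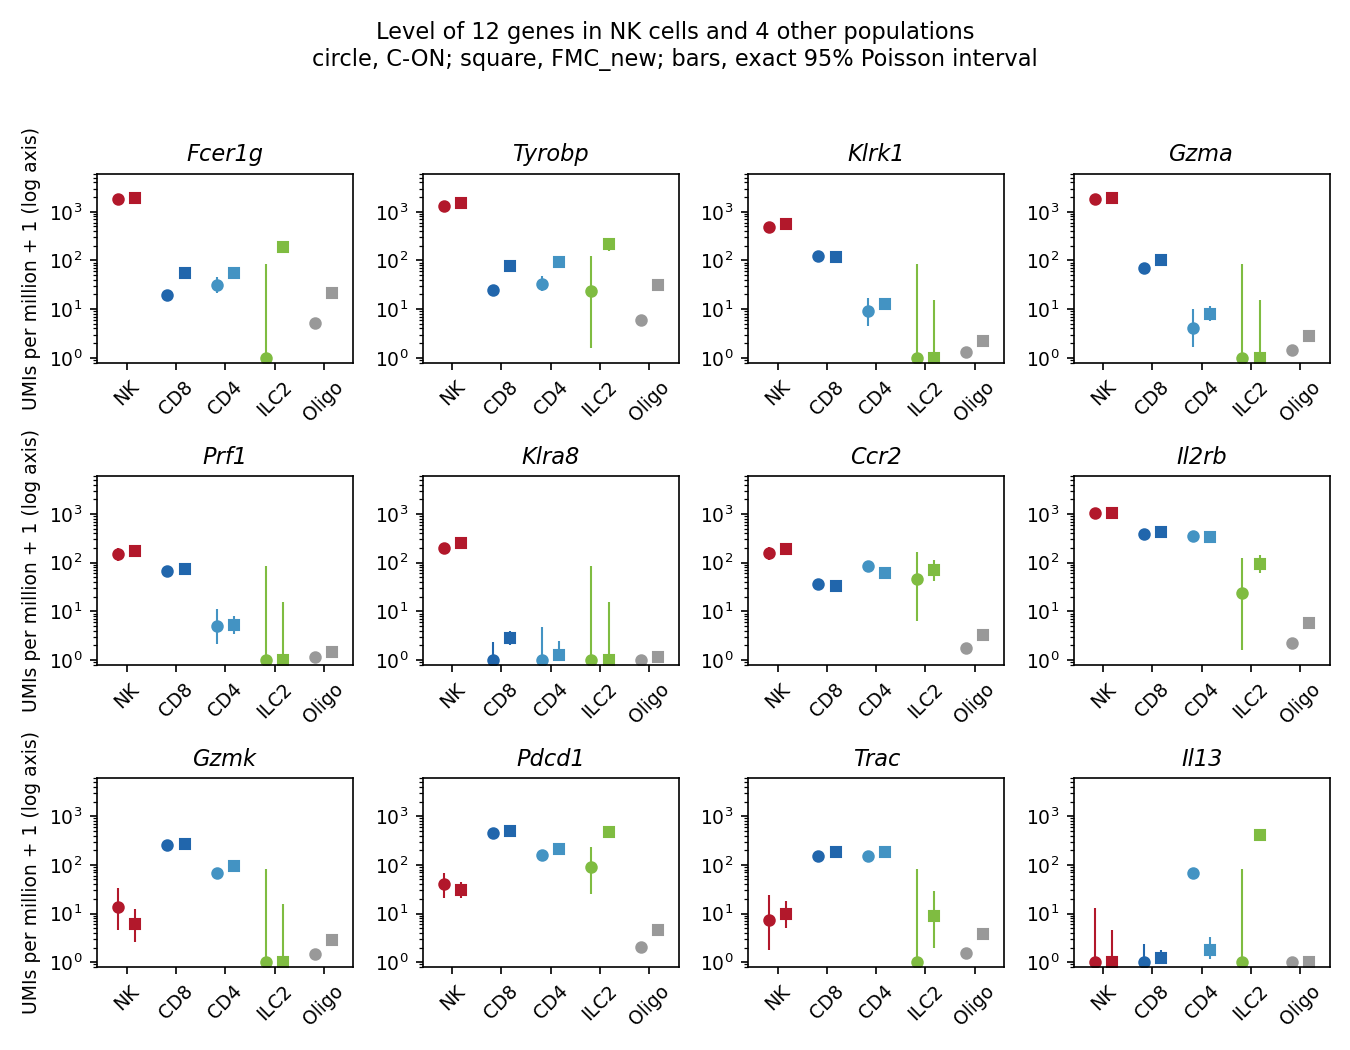
UMIs per 1000000 UMIs plus 1 (log axis) of 12 genes in NK cells, CD8 T cells, CD4 T cells, ILC2 and oligodendrocytes, with circles for C-ON, squares for FMC_new and bars for exact 95% Poisson intervals. The points of *Fcer1g*, *Tyrobp*, *Klrk1*, *Gzma* and *Klra8* are highest in NK cells of both libraries, those of *Gzmk* and *Trac* are highest in T cells, and *Il13* has 0 UMIs in NK cells.

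The cytotoxic genes did not move as a block. Of 16 granule and killing genes tested, 6 were higher in NK cells, 1 was lower and 9 did not pass. *Gzma*, which encodes the tryptase granzyme A, stood at 1850 and 1932 CPM against 69 and 103 CPM (log2 fold 4.43, SE 0.18, adjusted p = 3.3e-06). *Prf1*, the pore-forming perforin, stood at 148 and 176 CPM against 66.1 and 73.6 CPM (1.18, SE 0.14, adjusted p = 0.00109). The serpins that protect cytotoxic cells from their own granzymes were higher, with *Serpinb9* at 431 and 402 CPM against 54.6 and 75.5 CPM (2.61) and *Serpinb6b* at 338 and 276 CPM against 39.8 and 61 CPM (2.50). *Gzmk*, another tryptase granzyme, was lower, at 12.9 and 4.95 CPM against 249 and 266 CPM (-5.29, SE 0.31, adjusted p = 1.6e-05). *Gzma* and *Gzmk* thus differed in opposite directions between the same cells. *Gzmb* stood at 174 and 204 CPM against 106 and 111 CPM (adjusted p = 0.220) and *Nkg7*, a granule membrane protein, at 1953 and 1805 CPM against 2192 and 2351 CPM (adjusted p = 0.265). With NK and CD8 T cells fitted alone both passed, with adjusted p of 0.00187 for *Gzmb* and 0.00244 for *Nkg7*. That fit takes its spread from fewer sums than the main fit, so its p-values are less certain.

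Of 11 cytokine genes, 1 was higher than in CD8 T cells (*Tgfb1*, log2 fold 0.71) and 0 lower. *Ifng*, the main effector cytokine of NK cells, had 61.1 and 65.4 CPM against 118 and 127 CPM and did not pass the test (-0.94, SE 0.35, adjusted p = 0.173), though it did with NK and CD8 T cells fitted alone (adjusted p = 0.000588). Of 7 chemokine genes, 0 were higher and 3 lower, namely *Ccl3*, *Ccl1* and *Ccl2*. *Ccl3*, a ligand of CCR1, stood at 22.5 and 67.3 CPM against 112 and 121 CPM (-1.22, SE 0.26, adjusted p = 0.0222), a call that DESeq2 did not make (adjusted p = 0.0913). *Ccl5*, a chemokine made by effector lymphocytes, stood at 3788 and 3056 CPM against 5447 and 5691 CPM (-0.75, SE 0.22, adjusted p = 0.0799). Fitting only these populations gave -0.78 with an adjusted p of 3.6e-10. That fit, also quoted for *Ifng*, takes its spread from fewer sums than the main fit, so its p-values are less certain. *Ccl4* and *Xcl1*, whose product attracts cross-presenting dendritic cells, had 412 and 397 CPM and 1113 and 1051 CPM in NK cells and did not pass the test (adjusted p = 0.677 and 0.597).

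Homing genes set the lymphocytes apart in both directions, with 6 higher and 6 lower of 22. *Ccr2*, a receptor for monocyte-attracting chemokines, stood at 154 and 187 CPM against 34.7 and 32.3 CPM (log2 fold 2.36, SE 0.20). The higher genes also included *Klf2* (1.28), *Selplg* (0.58) and *Itgam* (3.69), the CD11b chain of late NK cells. *Cxcr6*, a receptor of tissue-resident lymphocytes, was lower, at 216 and 148 CPM against 379 and 471 CPM (-1.33, SE 0.19, adjusted p = 0.00270). *Itgae*, the CD103 chain that holds cells in epithelia, stood at 0 and 11.9 CPM against 31.8 and 79.4 CPM (-2.92, SE 0.35). *Ccr7* (-2.79), *S1pr1* (-2.45), *Cx3cr1* (-1.82) and *Itga4* (-1.11) were also lower, but the calls of *S1pr1* and *Cx3cr1* were lost with DESeq2 (adjusted p = 0.153 and 0.125), without the library block and at 1000 UMIs a cell.

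Among 21 transcription factor genes tested, 6 were higher and *Ikzf2* (-0.88) was lower. *Tbx21*, which encodes T-bet, stood at 277 and 236 CPM against 95.8 and 116 CPM (log2 fold 1.20, SE 0.17, adjusted p = 0.00267). *Eomes*, the T-box factor of mature NK cells, stood at 90.1 and 110 CPM against 42.6 and 37 CPM (1.36, SE 0.22, adjusted p = 0.00536), but its adjusted p was 0.211 with DESeq2 and 0.165 without the library block. *Irf8* (2.15), *Klf2*, *Stat4* (0.48) and *Maf* (0.96) were higher. *Stat4* passed narrowly (adjusted p = 0.0467) and lost its call in 5 alternatives, and *Maf* lost its call in 4. Receptors for the cytokines that keep and arm NK cells included *Il2rb*, the chain shared by the receptors of IL-2 and IL-15, at 1043 and 1040 CPM against 388 and 432 CPM (1.29, SE 0.12, adjusted p = 2.7e-04). *Il12rb2* (2.26) and *Il18rap* (1.41), chains of the IL-12 and IL-18 receptors, were higher, and *Ifngr1* was higher by 0.83. Of 16 cytokine receptor genes, 4 were higher and 2, *Il21r* and *Il10ra*, lower. *Il10ra* passed narrowly (adjusted p = 0.0498) and lost its call in 7 alternatives, and *Il21r* in 3.

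Maturation and residency genes gave no single direction. Of 10 early genes, *Cd7* (2.57) and *Emb* (1.08) were higher and *Thy1* (-1.48) and *Cd28* (-1.44) lower. Of 10 late genes, 4 were higher, including *Itgam* and *Klrg1* (1.71), and *Cx3cr1* was lower. Of 12 ILC1-associated genes, *Tmem176a* (1.43) and *Tmem176b* (1.54) were higher and *Itgae*, *Cxcr6* and *Inpp4b* (-0.59) lower. A list of 12 TGF-beta and tissue genes had 3 higher and 3 lower, of which *Itgae* and *Cxcr6* stand in the lists above as well. The interferon response list had 0 higher and 2 lower of 13, including *Rtp4* (-0.71, adjusted p = 0.0488), whose call was lost in 7 alternatives. The cell cycle list had 0 higher and 1 lower of 12 (*Mki67*, -1.26). *Junb*, *Ier2* and *Nr4a1*, genes that respond quickly to activation and to tissue dissociation, were higher by 0.69 to 0.78, 3 of 15 genes of that list. All 3 calls were lost without the library block and when sums of at least 10 cells were used in place of 20. That of *Ier2* was also lost at 1000 UMIs a cell.

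Genes of T cell identity were lower, 5 of the 6 tested. The remaining gene, *Trbc1*, did not pass the test, with 74 and 69.3 CPM against 66.1 and 62.3 CPM (log2 fold 0.10, SE 0.17, adjusted p = 0.833). *Trac*, the constant part of the T cell receptor alpha chain, stood at 6.44 and 8.91 CPM in NK cells against 149 and 185 CPM (log2 fold -4.43, SE 0.23, adjusted p = 9.2e-06). *Cd5*, which dampens T cell receptor signals, had 0 and 0.99 CPM against 90 and 125 CPM, and *Themis*, a factor of T cell development, 3.22 and 1.98 CPM against 324 and 348 CPM. *Trbc2*, the constant part of a beta chain, was lower by only 1.31, with 135 and 153 CPM against 351 and 336 CPM. It was found in 31.5% and 34.5% of NK cells and in 0.55% and 2.98% of oligodendrocytes, which had medians of 7687 and 6977 UMIs. The source of the *Trbc2* UMIs in NK cells was not tested.

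**Figure D2:**
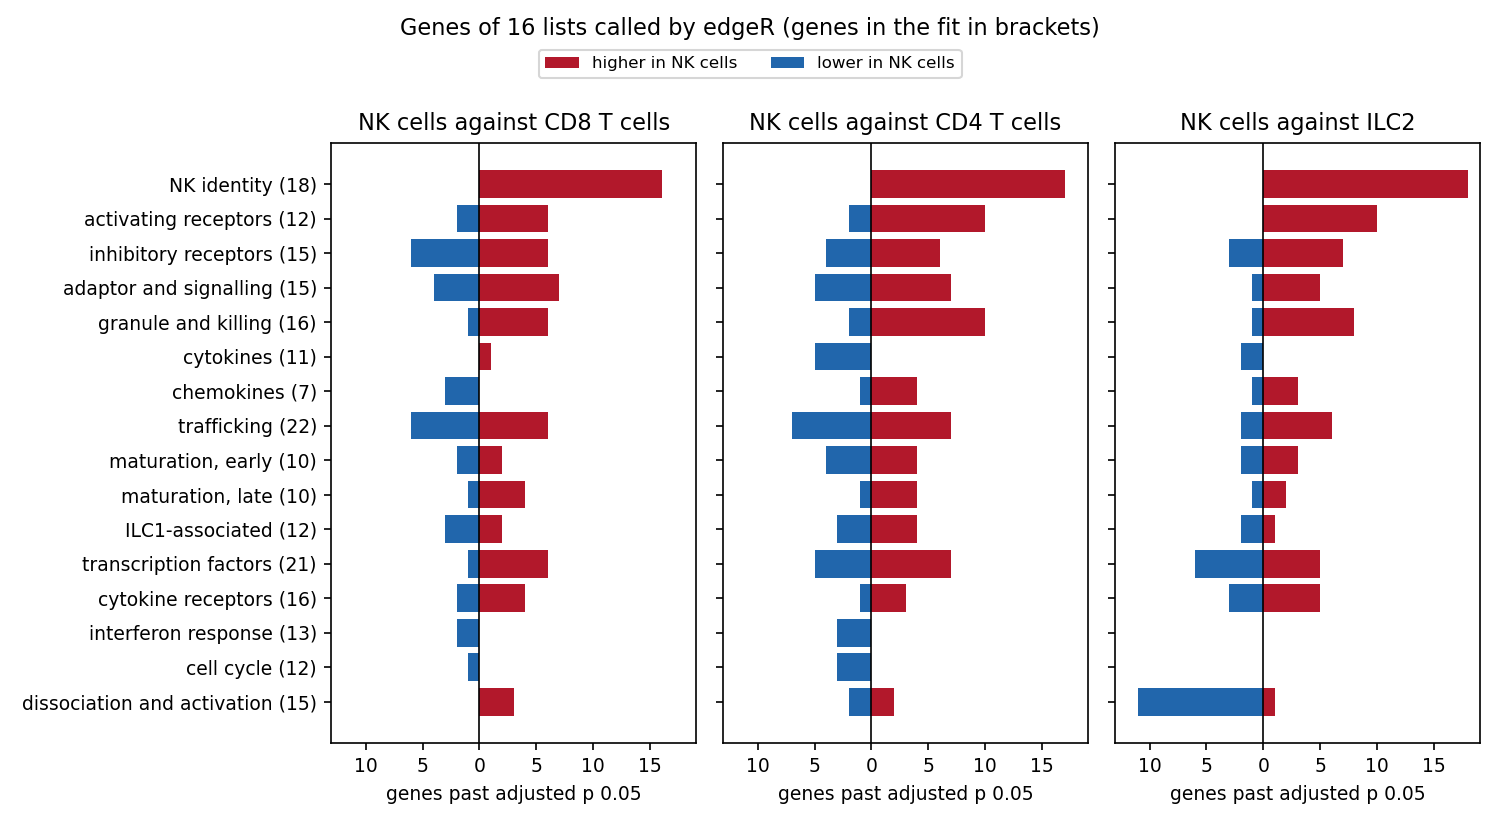
Number of genes of 16 lists that were higher (red, right of 0) or lower (blue, left of 0) in NK cells at an adjusted p under 0.05, against CD8 T cells, CD4 T cells and ILC2, with the genes tested in brackets. The NK identity list has 16, 17 and 18 higher genes and 0 lower, while inhibitory receptors and trafficking genes lie on both sides of 0.

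Against CD4 T cells, which the rule did not divide into conventional and regulatory cells, 494 genes were higher in NK cells (4.51%) and 562 lower (5.13%). Without the library block the counts were 167 and 178. Of the 18 identity genes 17 were higher and 0 lower, with a median log2 fold of 6.08 where all genes had 0.01. *Gzma* stood at 1850 and 1932 CPM against 3.06 and 7.12 CPM (8.40, SE 0.24, adjusted p = 2.0e-07), and *Cd7* at 885 and 1023 CPM against 4.08 and 16.9 CPM (6.41, SE 0.30). The chemokine list had 4 higher genes of 7. *Ccl5* stood at 3788 and 3056 CPM against 357 and 727 CPM (2.67, SE 0.24, adjusted p = 1.1e-04), *Xcl1* at 1113 and 1051 CPM against 64.3 and 120 CPM (3.55, SE 0.20), and *Ccl4* (1.24) and *Ccl3* (1.46) were higher too, though *Ccl3* was not called with DESeq2 (adjusted p = 0.196), without the block (0.242) or at 1000 UMIs a cell (0.0567). The cytokine list went the other way, with 0 higher and 5 lower of 11. *Ifng* was lower by 1.53 on the log2 scale, with 61.1 and 65.4 CPM against 293 and 120 CPM (SE 0.36, adjusted p = 0.0272), and *Areg*, a repair factor of regulatory T cells, by 3.80. *Il10* had 0 and 0.99 CPM in NK cells against 50 and 77.8 CPM, and *Tnf* and *Lta* were also lower. *Tnfrsf4*, the costimulator OX40, had 0 and 0.99 CPM against 508 and 493 CPM, and *Ctla4* stood at 119 and 149 CPM against 871 and 1080 CPM (-2.90, SE 0.13). *Cxcr6* did not pass the test here (adjusted p = 0.321). The NK sums are those of the comparison with CD8 T cells, so both comparisons share them.

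Of 12 activating receptor genes, 10 were higher than in CD4 T cells and 2 lower. *Cd160*, a receptor of cytotoxic lymphocytes, stood at 90.1 and 141 CPM against 8.16 and 11.6 CPM (log2 fold 3.55, SE 0.20), and against CD8 T cells at 96.5 and 129 CPM it had a log2 fold of 0.00 whose sign differed between the libraries and fits. *Klrc1* stood at 293 and 375 CPM against 2.04 and 7.39 CPM (5.83, SE 0.29). Of 16 granule and killing genes 10 were higher and 2 lower, among the higher ones *Prf1* at 148 and 176 CPM against 4.08 and 4.22 CPM (5.31, SE 0.22) and *Nkg7* at 1953 and 1805 CPM against 314 and 508 CPM (2.18). Inhibitory receptors had 6 higher and 4 lower of 15, adaptor genes 7 and 5 of 15, and trafficking genes 7 and 7 of 22. Of 21 transcription factor genes, 7 were higher and 5 lower, the latter including *Tcf7* (-0.92), a factor of early lymphocytes whose adjusted p was 0.116 with DESeq2. *Il7r*, the survival receptor of naive and memory T cells, was lower by 1.31.

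Against the ILC2 of FMC_new, 225 genes were higher in NK cells (2.05%) and 490 lower (4.47%), or 92 and 170 without the library block. ILC2 are innate lymphocytes that make type 2 cytokines, and the comparison rests on their 52 cells in 1 library. Their arm is thus 1 sum, so each SE and adjusted p against ILC2 takes its spread from the other populations and assumes that ILC2 vary like them. All 18 identity genes tested were higher. *Gzma* had 1932 CPM in NK cells of FMC_new and 0 UMIs in ILC2, so its level was at least 164-fold higher, taking a floor of 3 UMIs in that library. On the same floor *Klrk1* was at least 46.7-fold, *Klre1* 38.2-fold, *Klrc1* 31.9-fold and *Prf1* 15-fold higher. Of the 9 ILC2 genes tested 9 were lower. ILC2 were chosen by *Gata3* and *Il1rl1*, so genes known to accompany these describe what the rules separated, as do the identity genes. *Il13* and *Il17rb* had 0 UMIs in NK cells of both libraries and 416 and 381 CPM in ILC2, which makes them at least 140-fold and 128-fold lower in FMC_new, and *Arg1*, an arginase of ILC2, was at least 390-fold lower there but had 3.22 CPM in NK cells of C-ON. With DESeq2 the calls of *Il13* and *Arg1* were lost (adjusted p = 0.215 and 0.21).

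*Rora*, a factor of ILC2, stood at 212 and 181 CPM in NK cells against 734 CPM in ILC2 of FMC_new (log2 fold -2.12, SE 0.18). *Il7r* had 126 and 161 CPM against 879 CPM (-2.75, SE 0.23). *Nfkbia*, which encodes an inhibitor of NF-kappaB, stood at 499 and 414 CPM against 2017 CPM (-2.52), and *Pdcd1* was lower by 4.03 on the log2 scale. *Areg* stood at 6.44 and 11.9 CPM against 1032 CPM (-6.68, SE 0.30). With the 12 ILC2 of C-ON added as a second sum, the count of lower genes fell from 490 to 252, and the count of higher genes was 235. Of 15 early response genes, 11 were lower and 1 higher with 1 ILC2 sum, and 6 and 0 with both. Calls of 3 named genes were lost there. *Id2*, needed by all innate lymphocytes, stood at 389 and 453 CPM in NK cells and at 449 and 958 CPM in ILC2 of C-ON and FMC_new, and its log2 fold of -1.45 (adjusted p = 0.00346) became -0.79 (0.408). *Junb*, a subunit of AP-1, stood at 3215 and 2435 CPM against 4669 and 7159 CPM, and its call (log2 fold -1.59) was lost with an adjusted p of 0.267. *Ctla4* stood at 119 and 149 CPM against 22.4 and 306 CPM, in opposite order in the libraries, and its fold of -1.27 became -0.57 (adjusted p = 0.673). Without the block the calls of *Id2* and *Ctla4* were lost as well (adjusted p = 0.0662 and 0.0602).

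Within the NK cells, granule and killing genes differed in how widely they were detected. *Gzma* was detected in 42.5% of NK cells in C-ON and 47.2% in FMC_new, against 5.19% and 6.80% of CD8 T cells and 0.224% and 0.954% of oligodendrocytes. After thinning every cell to 1000 UMIs, the shares of NK cells were 37.1% and 40.1%. At that depth *Nkg7* was found in 74.3% and *Ctsw* in 75.7% of the NK cells of C-ON. NK cells with a *Gzma* UMI held a median of 15 in C-ON and 12.5 in FMC_new, and the highest held 63 and 85. The 7 and 23 members with the most *Gzma* UMIs held 52% and 54.5% of them. *Gzma* and *Prf1* were found together in 23.3% and 22.7% of NK cells, and a UMI of *Ccl3*, *Ccl4* or *Ccl5* in 79.5% and 79.0%. *Eomes* was detected in 20.5% and 27.5% of NK cells and *Tbx21* in 65.8% and 51.5%, which fell to 11.4% and 10.1% and to 24.3% and 23.8% at 1000 UMIs. *Fcer1g* was nearly general, in 93.2% and 97.4% of NK cells.

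CD27 and CD11b mark stages of mouse NK cell maturation. *Cd27* without *Itgam* was detected in 27.4% of NK cells in C-ON (interval 17.6 to 39.1%) and in 26.6% in FMC_new (21.0 to 32.9%), and *Itgam* without *Cd27* in 8.22% and 6.55%. Both were found in 1.37% and 3.49%, and neither in 63.0% and 63.3%, so most members could not be placed by these genes at this depth. Ly49 receptors are known to be expressed by subsets of NK cells in varied combinations. Of 6 Ly49 genes (*Klra1*, *Klra3*, *Klra4*, *Klra7*, *Klra8* and *Klra9*), 0 were detected in 53.4% and 41.5% of members, 1 in 15.1% and 13.5%, 2 in 16.4% and 19.2%, and 3 in 9.59% and 18.8%. The highest number in a cell was 5, in 1 cell of C-ON and 4 of FMC_new. Of the 12 cell cycle genes, *Stmn1* and *Hmgb2* were left out of a count per cell. At least 2 of the others were found in 3 and 9 cells, 4.11% and 3.93%.

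A division of the members that ran through many genes was that between Ly49 genes and *Cxcr6* or *Il7r*, genes known from resident NK cells and ILC1. It was chosen after the values were seen, so it is described without a test. A UMI of a Ly49 gene without one of *Cxcr6* or *Il7r* was found in 29 cells of C-ON (39.7%, interval 28.5 to 51.9%) and 118 of FMC_new (51.5%, 44.9 to 58.2%), here called Ly49 cells. The reverse was found in 26 cells (35.6%, 24.7 to 47.7%) and 68 cells (29.7%, 23.9 to 36.1%), here called *Cxcr6*/Il7r cells. Both kinds of UMI were present in 5 and 16 cells, 6.85% and 6.99%, where the product of the separate shares is 19.8% and 21.5%. Neither was present in 13 and 27 cells, 17.8% and 11.8%, and these had the lowest median depth in C-ON and in FMC_new, 2410 and 3023 UMIs. Median depths of Ly49 cells were 3876 and 3332.5 UMIs and those of *Cxcr6*/Il7r cells 4143 and 3762 UMIs.

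**Figure D3:**
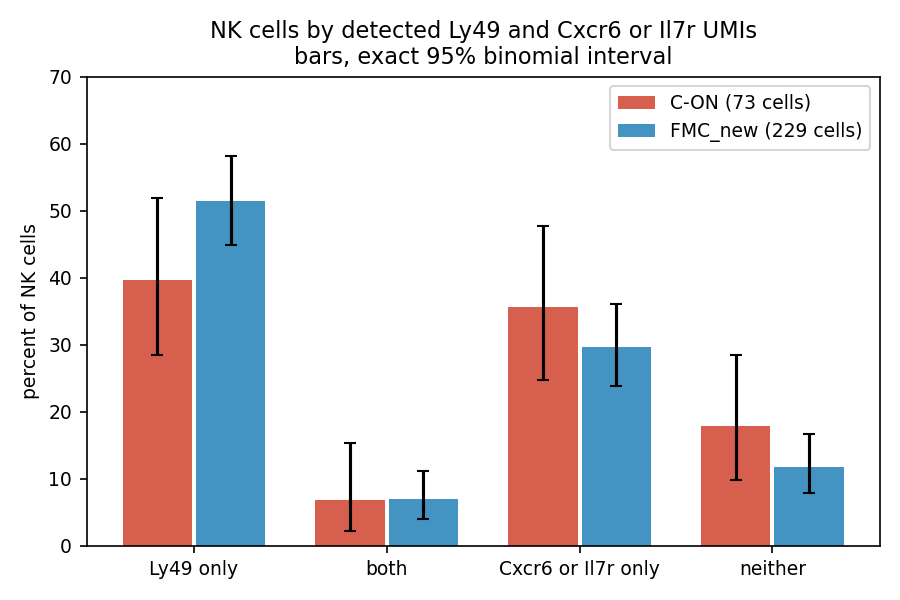
Share of NK cells (percent) with UMIs of Ly49 genes only, of both, of *Cxcr6* or *Il7r* only, or of neither, in C-ON (73 cells) and FMC_new (229 cells), with exact 95% binomial intervals. Both groups of single-sided cells are larger than the group with both kinds of UMI, which is 6.85% and 6.99%.

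Of the list genes past 2-fold in both libraries, *Gzma* had the widest ratio. It stood at 4821 CPM in Ly49 cells and 110 CPM in *Cxcr6*/Il7r cells of C-ON, and at 3443 and 10.2 CPM in FMC_new, where the latter is 3 UMIs. It was detected in 82.8% and 79.7% of Ly49 cells and in 3.85% and 4.41% of *Cxcr6*/Il7r cells. *Eomes*, a defining factor of conventional NK cells, followed the same order, with 232 against 0 CPM in C-ON and 172 against 10.2 CPM in FMC_new, and was found in 44.8% and 42.4% of Ly49 cells. *Prf1* stood at 251 against 73.2 CPM and 307 against 20.5 CPM, and *Gzmb* at 418 against 43.9 CPM and 330 against 30.7 CPM. Homing genes went with them. *Itga4* had 344 against 14.6 CPM and 359 against 88.7 CPM, and *Klf2*, a factor that drives *S1pr1*, 632 against 43.9 CPM and 228 against 88.7 CPM. *Ccl5* stood at 7774 against 1040 CPM and at 4368 against 1375 CPM. *Itgam* was found in 20.7% and 18.6% of Ly49 cells and in 0% and 1.47% of *Cxcr6*/Il7r cells.

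Other genes were higher in the *Cxcr6*/Il7r cells. *Gpr183*, a receptor for oxysterols that guides lymphocytes, stood at 300 CPM there against 0 CPM in the Ly49 cells of C-ON, and at 423 against 25.1 CPM in FMC_new. *Tmem176b* stood at 425 against 46.4 CPM and 542 against 110 CPM and was found in 76.9% and 76.5% of *Cxcr6*/Il7r cells against 3.45% and 15.3% of Ly49 cells. *Rora* stood at 337 against 74.3 CPM and 345 against 67.6 CPM, and *Ikzf2*, the factor Helios, at 146 against 9.29 CPM and 177 against 34.8 CPM. *Ctla4*, low in NK cells as a whole, was at 212 CPM in the *Cxcr6*/Il7r cells of C-ON against 0 CPM and at 338 against 38.6 CPM in FMC_new. *Ltb*, a lymphotoxin chain, stood at 776 against 232 CPM and 887 against 367 CPM, *Cd226* at 293 against 130 CPM and 409 against 100 CPM, and *Cxcr3*, a receptor for interferon-induced chemokines, at 154 against 65 CPM and 239 against 67.6 CPM. *Tnfsf10*, which encodes the death ligand TRAIL used by ILC1, stood at 124 against 46.4 CPM and 133 against 61.8 CPM.

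Of genes of the shared NK and ILC1 programme, some were close in both and some were not. *Klre1* was 3.11-fold and 2.57-fold higher in Ly49 cells of C-ON and FMC_new, *Tyrobp* 2.6-fold and 1.72-fold and *Nkg7* 1.94-fold and 1.57-fold. *Klrb1b* was 1.27-fold and 2.77-fold lower there. Among the close ones were *Tbx21*, *Klrd1* and *Xcl1*. *Tbx21* had 279 and 286 CPM in Ly49 and *Cxcr6*/Il7r cells of C-ON and 199 and 283 CPM in FMC_new, *Klrd1* 567 and 600 CPM and 653 and 733 CPM, and *Xcl1* 1115 and 1179 CPM and 1070 and 1201 CPM. *Ncr1*, used by the rule, had 1050 and 820 CPM and 865 and 836 CPM. *Itga1*, the CD49a chain of many ILC1, had 55.7 and 95.2 CPM and 81.1 and 102 CPM. Of 278 list genes that the division did not use, 34 lay past 2-fold in the same direction in both libraries, 20 higher in Ly49 cells and 14 higher in *Cxcr6*/Il7r cells, counting a gene at 0 at a floor of 3 UMIs. Of 10940 genes of the fit, 122 (1.12%) were higher in Ly49 cells and 133 (1.22%) in *Cxcr6*/Il7r cells on the same rule, together 2.33%, against 33 of the 245 list genes among them (13.5%). At 50 CPM or more in NK cells of both libraries the shares were 3.18% of 2953 genes and 19.3% of 140 list genes. RNA of other cells differed across the division, though not in the same direction for all lists. The 8 oligodendrocyte genes summed to 4087 CPM in Ly49 cells and 22502 CPM in *Cxcr6*/Il7r cells of C-ON and to 6991 and 7580 CPM in FMC_new. *Mag*, a myelin glycoprotein, stood at 55.7 CPM in Ly49 cells and 1047 CPM in *Cxcr6*/Il7r cells of C-ON and at 187 and 225 CPM in FMC_new. *Cnp*, an enzyme of myelin, stood at 195 and 1223 CPM and at 239 and 406 CPM, whereas *Ptgds* was lower in the *Cxcr6*/Il7r cells of FMC_new (825 and 440 CPM). In FMC_new the 10 B and plasma cell genes summed to 5187 and 9599 CPM, all immunoglobulin genes to 55033 and 83235 CPM and the 7 pituitary genes to 5844 and 9678 CPM, each higher in *Cxcr6*/Il7r cells. In C-ON the immunoglobulin genes summed to 1300 and 2856 CPM and the B and plasma cell genes to 325 and 439 CPM. The 12 monocyte, macrophage and microglia genes summed to 83.6 and 146 CPM in C-ON, but to 415 and 211 CPM in FMC_new. The 6 neutrophil genes summed to 0 and 14.6 CPM in C-ON and to 69.5 and 44.3 CPM in FMC_new. The part of these RNAs in the division was not tested.

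**Figure D4:**
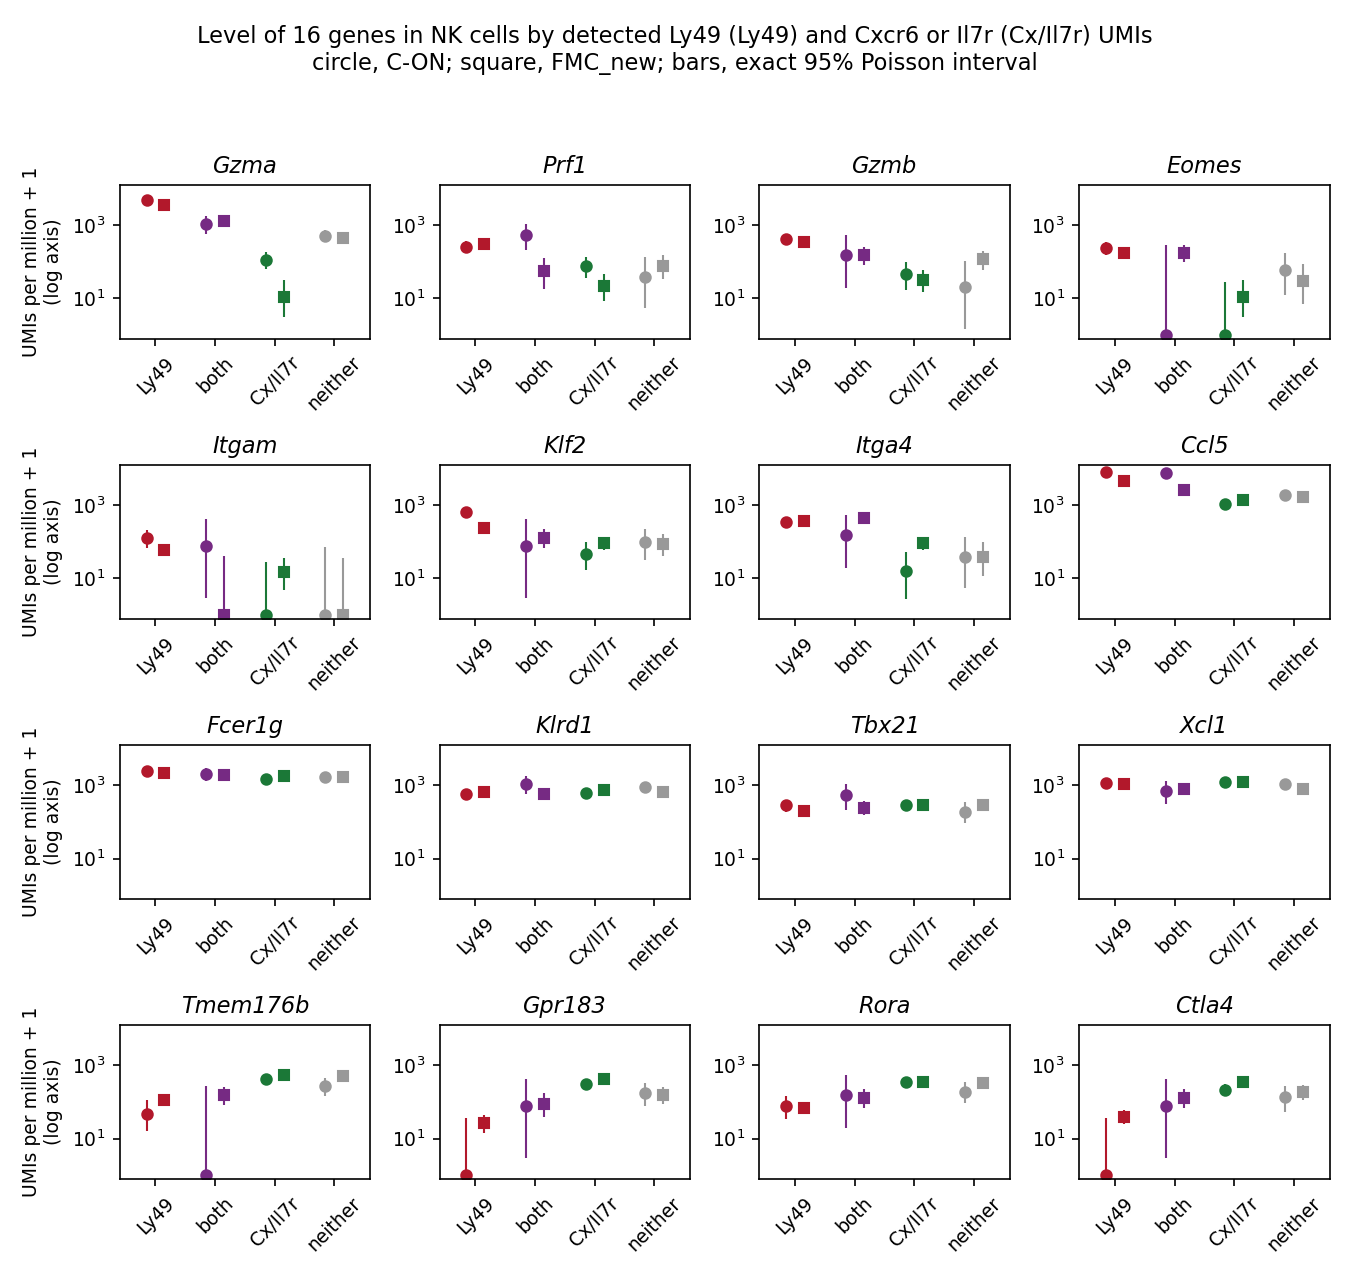
UMIs per 1000000 UMIs plus 1 (log axis) of 16 genes in NK cells with Ly49 UMIs only, with both kinds, with *Cxcr6* or *Il7r* UMIs only (Cx/Il7r) and with neither, with circles for C-ON, squares for FMC_new and bars for exact 95% Poisson intervals. *Gzma*, *Prf1*, *Gzmb*, *Eomes*, *Itgam*, *Klf2*, *Itga4* and *Ccl5* are higher in Ly49 cells of both libraries, *Tmem176b*, *Gpr183*, *Rora* and *Ctla4* in *Cxcr6*/Il7r cells, and *Fcer1g*, *Klrd1*, *Tbx21* and *Xcl1* lie close together.

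The libraries were compared within the NK cells gene by gene. Of 4007 genes at 50 CPM or more in either library, 156 were at least 2-fold higher in FMC_new (3.89%) and 271 at least 2-fold higher in C-ON (6.76%), with no test since each library is 1 pool. Of the 18 identity genes 0 were past 2-fold in either direction, with a median log2 difference of 0.13, FMC_new minus C-ON. In the receptor, granule, adaptor and trafficking lists 1 gene was past 2-fold, *Cd96* in FMC_new. *Ccl3* stood at 22.5 and 67.3 CPM and *Tcf7* at 38.6 and 108 CPM. *Fos*, an early response gene, stood at 277 and 830 CPM in NK cells and at 239 and 507 CPM in CD8 T cells, and *Fosb*, *Jun* and *Egr1* were also past 2-fold in FMC_new. The 9 interferon response genes at this level had a median of -0.70 in NK cells and -0.13 in CD8 T cells, and *Ifit3* was past 2-fold in C-ON.

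The widest differences between the libraries lay in genes of other cells. *Gh*, the growth hormone of the pituitary, had 0 UMIs in C-ON and 4069 CPM in FMC_new, where it was found in 228 of 229 NK cells and the highest cell held 2.43% of its UMIs. In CD8 T cells of FMC_new it stood at 4902 CPM and in oligodendrocytes at 8388 CPM. Pituitary RNA was thus present in the suspension of FMC_new, and the tissue that each NK cell came from was not tested. Immunoglobulin variable genes were spread unevenly over the members. *Igkv5-43* had 0 UMIs in C-ON and 14466 CPM in FMC_new, where 206 of 229 NK cells held it and the highest cell had 38.4% of its UMIs, whereas 99.7% of the UMIs of *Ighv9-3* (0 and 4156 CPM) lay in 1 of the 13 cells with any. In C-ON, *Chga*, a granule protein of neuroendocrine cells, stood at 2076 CPM against 38.6 CPM with 99.8% of its UMIs in 1 cell, and *Cck* at 328 against 0.99 CPM with all of them in 1 cell. Of the 8 oligodendrocyte genes, 5 were past 2-fold in C-ON, with a median of -1.44 in NK cells and -1.54 in CD8 T cells. The 3 MHC class II genes *H2-Aa*, *H2-Ab1* and *Cd74* and 6 B and plasma cell genes were past 2-fold in FMC_new.

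**Figure D5:**
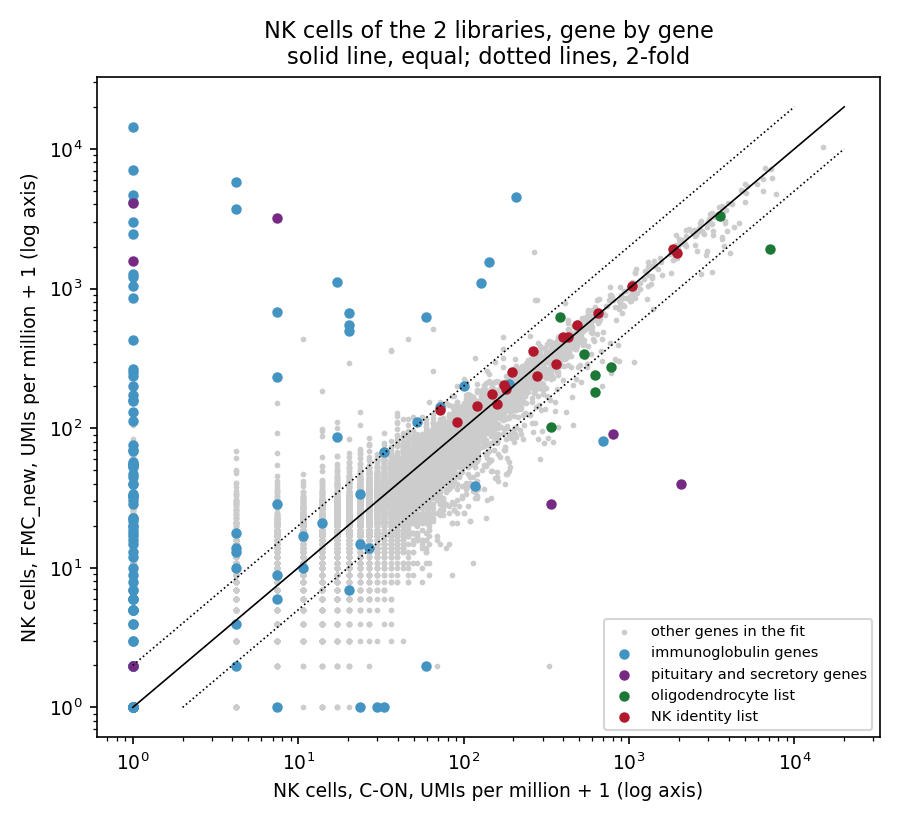
Level of each gene in NK cells of C-ON (x axis) and FMC_new (y axis), in UMIs per 1000000 UMIs plus 1 on log axes, with a solid line for equal levels and dotted lines for 2-fold. The 18 NK identity genes (red) lie within the dotted lines, while immunoglobulin genes (blue) and pituitary and secretory genes (purple) lie far outside them and 5 of 8 oligodendrocyte genes (green) lie past the line on the C-ON side.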

How the data were processed

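Suspensions of optic nerve cells were sequenced with 10x Genomics chemistry. The authors ran Cell Ranger on the mm10-2020-A mouse reference (version 7.2.0 in the file headers and processing notes, where the methods text names another) and deposited raw UMI counts per gene and barcode for the barcodes called as cells, with no normalization. Whether intronic reads were counted is not given in the sources used here. Doublets were neither called nor removed here, and the methods describe no removal.

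Barcodes with 500 to 5000 genes, 500 to 20000 UMIs and at most 5% mitochondrial UMIs were kept, as in the study's methods, leaving 8834 of 10845 (81.5%) in C-ON and 16818 of 21341 (78.8%) in FMC_new. The files list 32285 genes and 0 columns of other series. The members, populations and gene lists were chosen with earlier results of these data known. Genes could be named from 26 lists, or as the 10 genes with the largest folds of a comparison in each direction at 50 CPM or more, the 10 highest genes, or the 8 with the largest folds between libraries. The promoters and the Ly49 division were chosen after the values were seen.

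UMI counts were summed per library and population of at least 20 cells, which gave 7 sums and 2 residual degrees of freedom. The spread of each gene was also drawn towards that of the other genes, with 6.98 prior degrees of freedom (median). edgeR 4.0.16 under R 4.3.3 was run with TMM factors, filterByExpr and the library as a block, with Benjamini-Hochberg adjustment at 0.05, and was tested on simulated counts first. Sums of 1 library come from the same pool of mice. Over 7074 genes the differences between libraries correlated with r = 0.48 between NK and CD8 T cells, 0.41 between NK and CD4 T cells and 0.66 between CD8 and CD4 T cells, across genes that are not independent. Alternatives were DESeq2 1.42.0, other size factors, no filter, no block, only the populations compared, other gates and cells thinned to 1000 UMIs. Fits of only the populations compared leave fewer residual degrees of freedom than the fit of all populations. Added after seeing the data were leaving out members with at least 5% of UMIs from other lineages and sums of at least 10 cells. Intervals are exact, at 95%, and cover counting error only. Gates, levels and intervals used scipy 1.17.1, pandas 2.3.3 and numpy 2.4.6 under Python 3.11.15. Promoters and gene starts come from RefSeq (GRCm38.p6), matched by symbol, and Tyrobp and Il2rb have no entry there. Shared 50-base stretches were counted over the transcripts of GENCODE vM21.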

Additional observations from a re-analysis of the deposited data

How the results depend on the processing

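The counts of called genes and the calls of many named genes depend on the fit. Without the replicate block for the library, 77 genes were higher and 77 lower against CD8 T cells, 167 and 178 against CD4 T cells, and 92 and 170 against ILC2. DESeq2 gave 259 and 228 against CD8 T cells, 326 and 349 against CD4 T cells, and 139 higher against ILC2. Cells thinned to 1000 UMIs gave 223 higher against CD8 T cells, 278 and 362 against CD4 T cells, and 113 and 186 against ILC2. Without the filter on low counts, 876 were lower against CD8 T cells, 932 lower against CD4 T cells and 412 higher against ILC2. Fitting only the populations compared gave 600 lower against CD8 T cells, and sums of at least 10 cells gave 252 lower against ILC2. The cause of these shifts was not tested, other than that thinning leaves fewer UMIs.

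The mean share of NK cells ranged from 0.826% to 1.36% when either library was left out, and from 0.926% to 1.06% under the other gates and filters. Of 151 pairs of a named gene and a comparison, 140 were called, 72 of them in every test. Without the block 64 lost their call, with sums of at least 10 cells 23, with DESeq2 16, at 1000 UMIs 12 and under each other setting at most 5. Without the block the losses against CD8 T cells included Tyrobp (adjusted p = 0.0583), Eomes, Tbx21, Cxcr6 and Irf8. Against CD8 T cells Ccl5, Gzmb, Ifng, Klrc1 and Nkg7 gained a call in 1 or more fits. Signs changed for 2 uncalled genes against CD8 T cells. Cd160 had log2 folds of -0.01 with DESeq2, -0.07 without the filter, -0.01 with only those populations, -0.08 at 1000 UMIs and -0.03 with sums of at least 10 cells, and ranged from -0.21 to 0.11 when either library was left out, as Ccl4 ranged from -0.47 to 0.11.

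Planned fits not run are the gate with fewer than 3 UMIs over 10 other-lineage genes, which leaves 3 members in C-ON and 0 in FMC_new, and a fit of NK cells and ILC2 alone or of 1 library, which have no residual degrees of freedom. Shares of cells with a UMI depend on depth, as thinning shows, and 73 and 229 cells limit every share.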
